A study of Solanum lycopersicum with 12 samples.

Results

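The hybrid GxQ was set against its parent line G in the fleshy mesocarp of greenhouse-grown tomato fruits picked at the red ripe stage. The comparison took 6 of the 12 libraries of the series, 3 of GxQ and 3 of G, and all 17887 genes of the deposited count table. GxQ and QxG are the hybrids of lines G and Q crossed in the 2 orders, and the labels write this hybrid as G x Q. Q (Querubín FCA) and G (Gema FCA) are recombinant inbred lines, which descend by selfing from a cross of cultivated tomato, Solanum lycopersicum, with its wild relative S. pimpinellifolium. No treatment was applied, and all genotypes were grown in 1 greenhouse crop. Each library came from 1 fruit of its genotype, so p-values measure the spread between fruits. The labels do not say whether fruits of a genotype came from different plants, or at what hour they were picked. Groups were taken from the genotype in the labels, and the other hybrid and Q were used only to place genes that differed between GxQ and G.

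A hybrid of inbred lines carries the allele of each parent at every locus where the parents differ, so a hybrid can depart from a parent both by what the other parent brings and by how the combination is regulated. Tomato fruit ripens under the gas ethylene, which is made by ACS and ACO enzymes and sensed by receptors that hold the response off until ethylene binds. Its downstream programme includes the enzymes that make the red carotenoid lycopene, the wall enzymes that soften the flesh, and the conversion of organic acids, sugars and amino acids that sets flavour. The circadian clock, a loop of genes that repress each other through the day, runs in fruit as well as in leaves.

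Total counts were 18234869 to 19956457 in GxQ and 15207931 to 25320267 in G. Levels are given in CPM, read counts brought to a common library total with edgeR's TMM factors, which were 0.916 to 1.07 in these 6 libraries. The correlation of log2 CPM across genes was 0.962 to 0.974 between GxQ fruits and 0.983 to 0.989 between G fruits, against 0.919 to 0.958 between a GxQ and a G fruit. Across genes, values are not independent replicates. No pair of libraries was identical, and fruits of 1 genotype differed by much more than counting error (chi-square of 19.1 or more per gene). As a check of the labels, 4 transcripts stood at 5 CPM or more in every G fruit and at 0 counts in every Q fruit, and all 4 had counts in each GxQ fruit. The reverse held for 3 transcripts of Q, of which 3, 2 and 2 had counts in the first, the second and the third GxQ fruit. In the second GxQ fruit the transcript at 0 was Solyc07g064380, with 0.920, 0 and 0.962 CPM in GxQ, 0.819, 1.27 and 4.15 CPM in QxG and 10.99, 5.58 and 8.30 CPM in Q. In the third GxQ fruit it was Solyc10g086780, both singled out after their values were seen, with 17.1, 10.1 and 0 CPM in GxQ, 13.1, 11.4 and 10.4 CPM in QxG and 26.1, 26.2 and 21.0 CPM in Q. Both hybrids carry the alleles of both parents, so this check cannot tell GxQ from QxG.

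Of the 17887 genes, 2205 differed between GxQ and G at an adjusted p under 0.05 (12.3%), and these are referred to as called. GxQ was higher for 1250 of them (6.99% of all genes) and lower for 955 (5.34%). The median called rise was 2.70-fold, and 450 genes rose over 4-fold, while the median called fall was 2.02-fold, and 109 genes fell over 4-fold. The median log2 fold change of all genes was 0.01, and 49.1% of genes lay below 0. The 3 GxQ fruits stood above all 3 G fruits for 3432 genes (19.2%) and below them for 3446 (19.3%). Without the second G fruit the count fell to 777 called genes, without the first G fruit to 917, and without the third to 1163. It was 1179 without the first GxQ fruit, 1177 without the third and 2039 without the second. Leaving out the first QxG and the third Q library, which belong to neither group compared, raised it to 3919. That fit estimated the spread, the TMM factors and the filter on low counts anew, and tested 17863 genes.

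**Figure D1:**
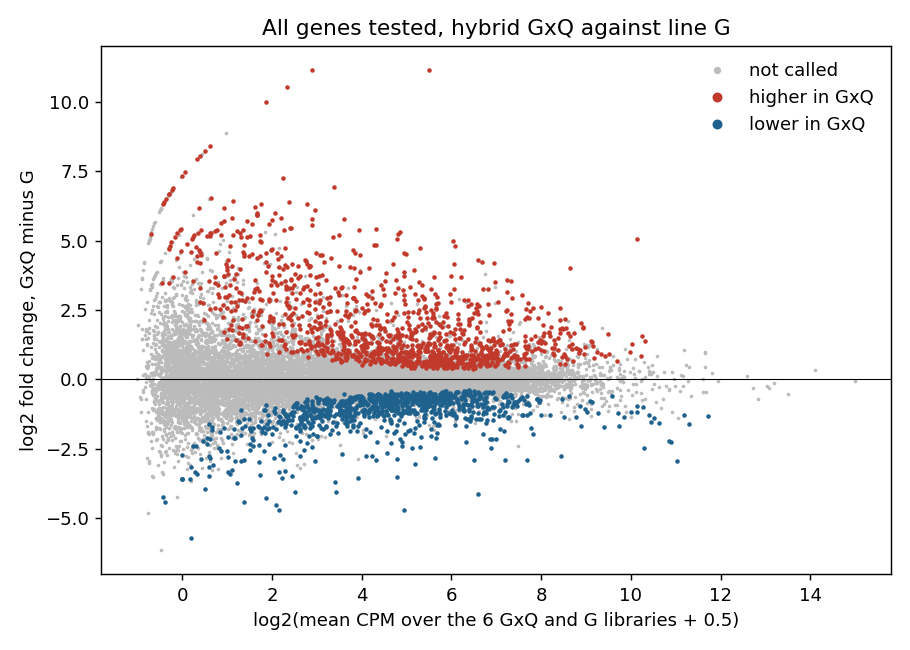
Each point is 1 of the 17887 genes, with its mean level over the 6 libraries on the x axis (log2 of CPM plus 0.5) and its log2 fold change, GxQ minus G, on the y axis. Red points are the 1250 genes called higher in GxQ and blue points the 955 called lower; the red points reach farther from 0 than the blue ones.

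Gene lists for fruit biology held 246 genes, of which 196 were in the table. Of these, 20 were called higher and 23 lower (21.9% called, against 12.3% of all genes). The lists were chosen with earlier results of these data known, so this share and those below are not independent of the data. The 43 called members are all named below, 7 of them after their values were seen: GPP2, CCD1B, CTR1, NR, TOC1, the GIGANTEA gene Solyc04g071990 and the pectinesterase Solyc07g064180. Uncalled members given with values were also picked after their values were seen, apart from RIN, NOR, PSY1, CYCB, PG2A, ACS2, ACO1, TIV1, LIN5, TomLoxC and HSP21. In whole tissue, fewer cells of a type and less RNA per cell cannot be told apart.

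**Figure D2:**
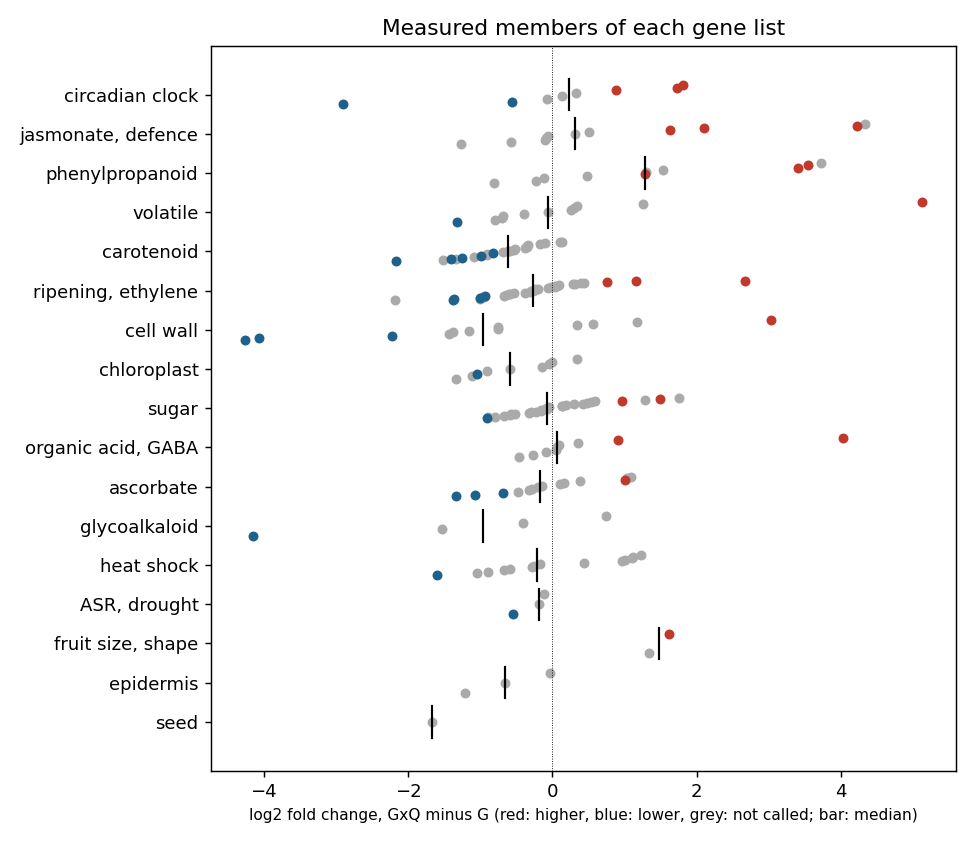
Log2 fold change, GxQ minus G, on the x axis for each of the 196 measured list genes, arranged by list; red points were called higher, blue lower, grey not called, and the black bar is the list's median. The 23 carotenoid points lie almost wholly left of 0 with a median of -0.62, and the clock list holds called genes on both sides.

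In the circadian clock, 5 of 8 measured genes were called, 3 higher and 2 lower in GxQ (62.5% called, against 12.3% of all genes). LHY encodes the transcription factor that peaks around dawn and represses evening genes in Arabidopsis. It had 46.3, 26.7 and 30.1 CPM in GxQ fruits, against 242, 250.1 and 281 CPM in G fruits. Every GxQ fruit was far below every G fruit, a 7.49-fold difference (log2 fold change -2.91, standard error 0.21, adjusted p = 7.63e-05). GIGANTEA, a large protein active in the evening, links the clock to light and flowering, and tomato has a pair of such genes. Solyc12g056650 had 226, 232 and 264 CPM in GxQ fruits, against 60.9, 76.4 and 69.1 CPM in G fruits (log2 fold change 1.81, standard error 0.17, adjusted p = 5.29e-04). Its partner Solyc04g071990 was also higher in GxQ, with 103, 152 and 141 CPM in GxQ fruits, against 68.9, 79.1 and 66.1 CPM in G fruits (log2 fold change 0.89, adjusted p = 0.0163). PRR5, which represses LHY later in the day in Arabidopsis, had 23.6, 17.8 and 22.4 CPM in GxQ fruits, against 8.38, 7.07 and 3.87 CPM in G fruits (log2 fold change 1.73, standard error 0.33, adjusted p = 0.00858). The evening repressor TOC1 was lower in GxQ, with 39.1, 46.2 and 31.7 CPM in GxQ fruits, against 58.7, 60.3 and 52.8 CPM in G fruits (log2 fold change -0.55, adjusted p = 0.0369). Groups did not overlap for any of these 5 genes. The other 3 measured members, the day factor PRR9, LNK2 and the light input gene EID1, had log2 fold changes of 0.32, 0.13 and -0.08 with overlapping fruits, and were not called.

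LHY, Solyc12g056650 and PRR5 also differed between GxQ and each of QxG and Q. LHY had 88.4, 106 and 75.7 CPM in QxG fruits and 207, 212 and 188 CPM in Q fruits, so GxQ was lower than QxG (log2 fold change -1.39, adjusted p = 0.00127) and than Q (log2 fold change -2.56, adjusted p = 6.82e-05). Solyc12g056650 had 137, 146 and 162 CPM in QxG fruits and 55.2, 40.5 and 62.6 CPM in Q fruits, and GxQ was above QxG (log2 fold change 0.70, adjusted p = 0.0210) and Q (log2 fold change 2.19, adjusted p = 6.49e-05). PRR5 had 3.28, 3.20 and 3.97 CPM in QxG fruits and 9.09, 7.49 and 4.12 CPM in Q fruits, and the GxQ excess over QxG was 2.61 on the log2 scale (adjusted p = 6.73e-04), and over Q 1.62 (adjusted p = 0.00854). The other 2 called clock genes were not called between GxQ and QxG (adjusted p = 0.329 for Solyc04g071990 and 0.0796 for TOC1). Both were higher in GxQ than in Q (log2 fold change 1.36, adjusted p = 0.00235 and log2 fold change 0.62, adjusted p = 0.0214). TOC1 had 27.0, 25.6 and 23.2 CPM in Q fruits, so GxQ stood between its parents. For reference, 1815 genes (10.1%) were called between GxQ and QxG. The hour of harvest is not in the labels, so genotype and time of picking cannot be told apart for these genes. The TOC1 call was lost without any 1 G fruit or without the first or the third GxQ fruit (adjusted p 0.0656 to 0.118) and with only the 6 GxQ and G libraries (adjusted p = 0.0503), and that of Solyc04g071990 without the first or the third G or the third GxQ fruit (adjusted p 0.0546 to 0.0660).

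**Figure D3:**
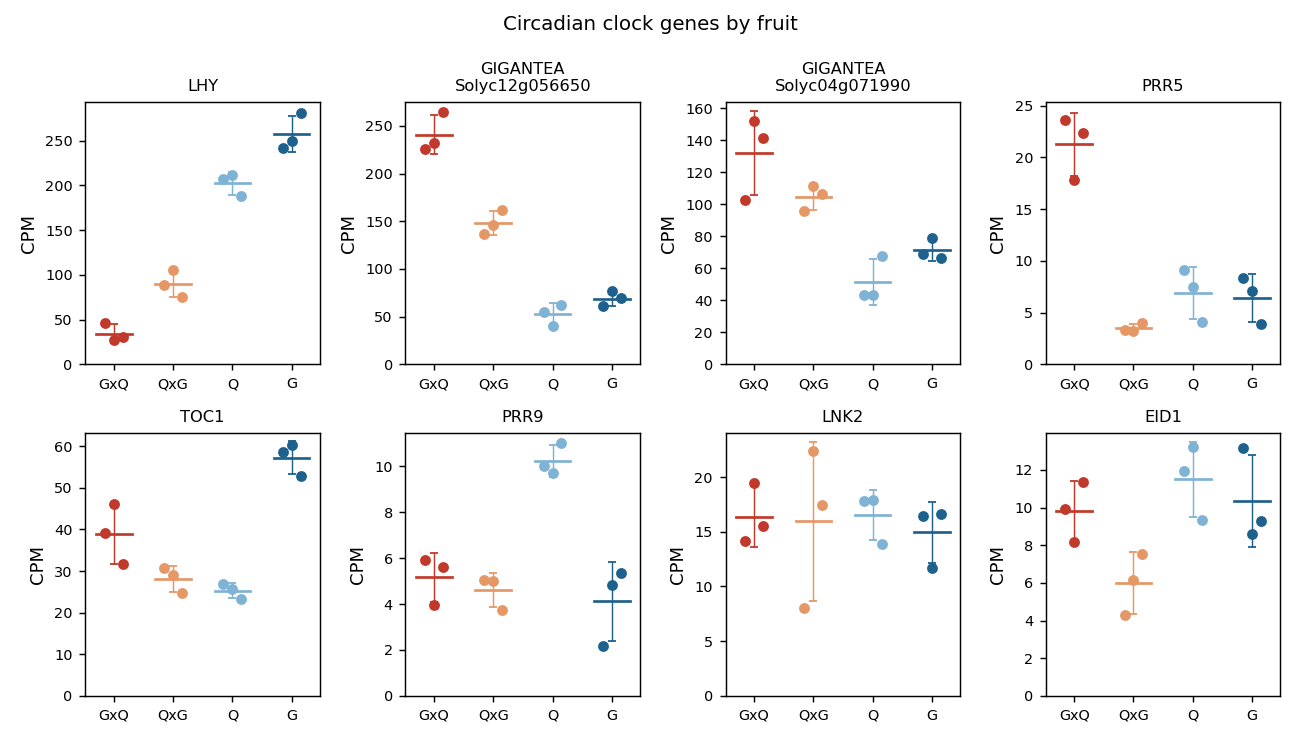
Level in CPM (y axis, from 0) of the 8 measured clock genes in the 3 fruits of GxQ, QxG, Q and G; the horizontal bar is the mean and the whisker the SD (n = 3). The 3 GxQ fruits are lowest for LHY, between 26.7 and 46.3 CPM, and highest for Solyc12g056650, between 226 and 264 CPM.

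Jasmonate, a lipid hormone released on wounding, is made from linolenic acid by a lipoxygenase, allene oxide synthase and cyclase, and OPR3, and its responses are held back by JAZ repressors that are themselves induced by the hormone. Of 11 measured genes in the jasmonate and defence list, 3 rose and 0 fell in GxQ (27.3% higher, against 6.99% of all genes). Called or not, 6 members had a log2 fold change above 0 and 5 below. The lowest, at -1.26, was in an uncalled member whose levels are not given here. LOXD, the lipoxygenase that starts the pathway, had 249, 93.5 and 239.5 CPM in GxQ fruits, against 8.58, 5.25 and 17.1 CPM in G fruits, an 18.6-fold difference (log2 fold change 4.22, standard error 0.80, adjusted p = 0.00843). The second GxQ fruit was lowest of its group but still above every G fruit. The repressor gene JAZ1 had 29.7, 38.9 and 44.7 CPM in GxQ fruits, against 8.78, 7.81 and 9.81 CPM in G fruits (log2 fold change 2.098, standard error 0.44, adjusted p = 0.0118). JAZ3 had 28.0, 17.1 and 47.2 CPM in GxQ fruits, against 9.61, 9.56 and 10.8 CPM in G fruits (log2 fold change 1.62, adjusted p = 0.0180). Both were above every G fruit in all 3 GxQ fruits. JAZ2 was nearly silent in G, with 2.35, 0.383 and 2.83 CPM in GxQ fruits, against 0, 0.202 and 0.0782 CPM in G fruits, and was not called (log2 fold change 4.33, adjusted p = 0.0862). Of the later enzymes, AOC had 10.1, 11.7 and 7.81 CPM in GxQ fruits, against 14.7, 15.6 and 13.8 CPM in G fruits, with every GxQ fruit below every G fruit but no call (log2 fold change -0.57, adjusted p = 0.0841). AOS1, AOS2 and OPR3 had log2 fold changes of -0.06, 0.31 and 0.51 and were not called. The receptor COI1 and the transcription factor MYC2 stood at -0.10 and -0.08. The JAZ1 call was lost without the second G fruit (adjusted p = 0.0563), and the JAZ3 call without any 1 G fruit or without the third GxQ fruit (adjusted p 0.0527 to 0.0717).

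Phenylalanine ammonia-lyase turns phenylalanine into cinnamate, the entry to lignin, flavonoids and other phenylpropanoids. In that list 3 of 10 measured genes rose and 0 fell (30.0% higher, against 6.99% of all genes), with a median log2 fold change of 1.29 against 0.01 for all genes. The ammonia-lyase gene Solyc09g007900 had 94.7, 40.9 and 84.3 CPM in GxQ fruits, against 4.36, 3.37 and 12.7 CPM in G fruits, 10.6-fold more (log2 fold change 3.41, standard error 0.74, adjusted p = 0.0139). Its neighbour Solyc09g007920 had 53.0, 22.2 and 48.9 CPM in GxQ fruits, against 3.48, 2.09 and 4.97 CPM in G fruits (log2 fold change 3.54, standard error 0.83, adjusted p = 0.0191). Solyc09g007910, which lies between them, had 14.5, 6.95 and 12.9 CPM in GxQ fruits, against 0.490, 1.01 and 1.09 CPM in G fruits and was not called (log2 fold change 3.72, adjusted p = 0.0848). These genes are close copies that may share reads, so the 3 values may not be separate measurements. The second GxQ fruit was again the lowest of its group for all 3. The coumarate CoA ligase gene Solyc03g117870, further down the pathway, had 381, 372 and 596 CPM in GxQ fruits, against 172, 187 and 195 CPM in G fruits (log2 fold change 1.28, adjusted p = 0.0115). Cinnamate hydroxylase (C4H), the step between them, varied from 2.095 to 23.15 CPM within GxQ and was not called. The call of Solyc09g007900 was lost without the first or the second G fruit (adjusted p 0.0656 to 0.0660) and that of Solyc03g117870 without the first G fruit (adjusted p = 0.0520). The call of Solyc09g007920 was lost without any 1 G fruit or without the first or the third GxQ fruit (adjusted p 0.0502 to 0.0831).

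Phenylalanine is also the source of rose-scented volatiles, and the decarboxylase AADC1A takes its first step. AADC1A had 23.6, 5.20 and 28.5 CPM in GxQ fruits, against 0.294, 0.337 and 0.938 CPM in G fruits (log2 fold change 5.11, standard error 1.06, adjusted p = 0.0114), and its call was lost without the first or the second G fruit (adjusted p 0.0557 to 0.0563). AAT1, the acyltransferase that makes fruity esters, went the other way with 1573, 2543 and 1642 CPM in GxQ fruits, against 5026, 4398 and 4898 CPM in G fruits (log2 fold change -1.31, standard error 0.26, adjusted p = 0.00940). These were the called members among 11 measured volatile genes, 1 higher and 1 lower (9.09% each, against 6.99% and 5.34% of all genes). TomLoxC, the lipoxygenase of fatty acid volatiles, had 209, 237 and 312 CPM in GxQ fruits, against 279.7, 509 and 429.5 CPM in G fruits, and the fruits overlapped (log2 fold change -0.68, adjusted p = 0.275). LOXD, both called ammonia-lyase genes and AADC1A were higher in GxQ than in QxG as well, where LOXD had 1.94, 2.66 and 6.76 CPM (log2 fold change 5.69, adjusted p = 0.00152) and AADC1A 0, 0.121 and 0.652 CPM (log2 fold change 6.27, adjusted p = 0.00481). Q fruits were uneven: LOXD stood at 55.2, 35.4 and 5.11 CPM and AADC1A at 9.88, 5.01 and 0.824 CPM, the third Q fruit being lowest for both.

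**Figure D4:**
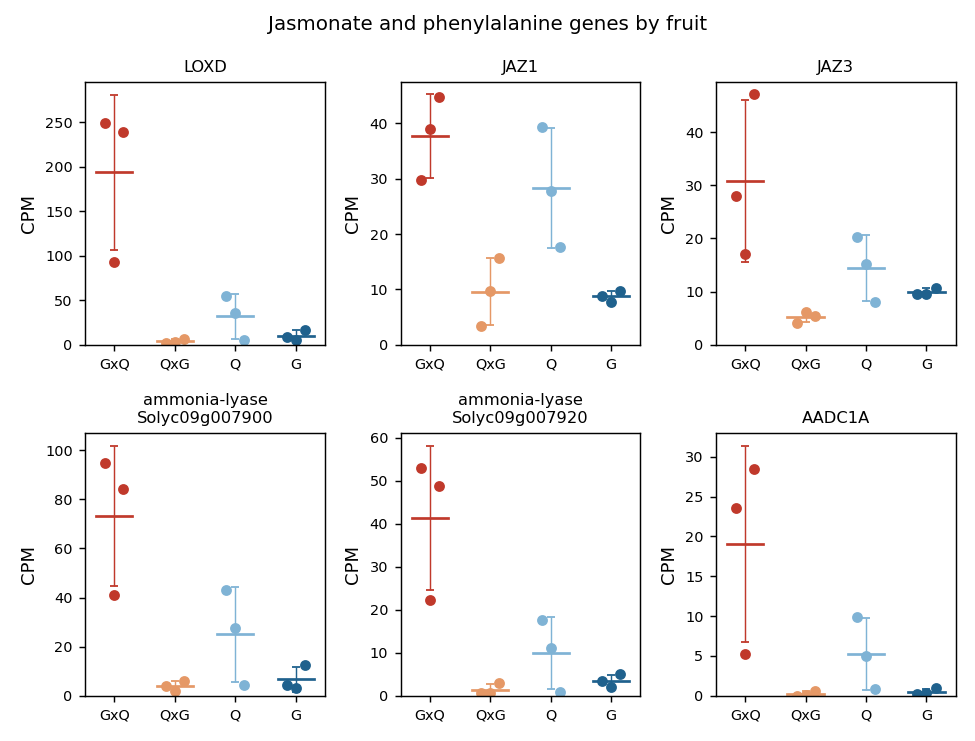
Level in CPM (y axis, from 0) of LOXD, JAZ1, JAZ3, 2 ammonia-lyase genes and AADC1A in each fruit of GxQ, QxG, Q and G, with the mean (bar) and SD (whisker, n = 3). For LOXD the GxQ fruits lie between 93.5 and 249 CPM, and the G fruits between 5.25 and 17.1 CPM.

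Carotenoid genes lay mostly below 0 in GxQ. Of 23 measured genes, 5 fell and 0 rose (21.7% lower, against 5.34% of all genes), 21 had a log2 fold change below 0, and the median was -0.62. All 3 GxQ fruits were below all 3 G fruits for 15 of the 23, against 19.3% of all genes. Lycopene is built from plastid isoprenoids joined by GGPP synthase, condensed by PSY1 and unsaturated by PDS, ZISO, ZDS and CRTISO. In the supply branch, the GGPP synthase gene GGPPS2 had 17.0, 56.1 and 64.8 CPM in GxQ fruits, against 231, 214 and 173 CPM in G fruits (log2 fold change -2.17, adjusted p = 0.0390), with the first GxQ fruit lowest. GGPPS3 had 31.4, 45.9 and 40.3 CPM in GxQ fruits, against 70.2, 80.5 and 83.2 CPM in G fruits (log2 fold change -0.99, standard error 0.19, adjusted p = 0.00840). DXS1, the entry enzyme, had 246, 346 and 342 CPM in GxQ fruits, against 529, 659 and 559 CPM in G fruits and just missed the threshold (adjusted p = 0.0512). ZISO, the isomerase of zeta-carotene, had 716, 799 and 886 CPM in GxQ fruits, against 2083, 2153 and 2101 CPM in G fruits (log2 fold change -1.40, standard error 0.27, adjusted p = 0.00867). PSY1, the first committed step in fruit, had 4411, 6017 and 6257 CPM in GxQ fruits, against 9235, 8760.4 and 8909 CPM in G fruits; the groups did not overlap, but it was not called (log2 fold change -0.69, adjusted p = 0.174). PDS, ZDS and CRTISO had log2 fold changes of -0.53, -0.59 and -0.33, and CYCB, the chromoplast lycopene cyclase, -0.36, none of them called.

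The cleavage dioxygenases CCD1A and CCD1B, which cut carotenoids into aroma compounds, were both lower. CCD1A had 30.1, 32.6 and 32.0 CPM in GxQ fruits, against 59.8, 90.4 and 75.1 CPM in G fruits (log2 fold change -1.25, standard error 0.16, adjusted p = 0.00202), and CCD1B had 388, 385 and 435 CPM in GxQ fruits, against 635, 817 and 694 CPM in G fruits (log2 fold change -0.83, adjusted p = 0.0163). They are neighbours on chromosome 1 and may share reads. CCD1A also differed between GxQ and Q, where it had 8.14, 7.49 and 6.70 CPM (log2 fold change 2.08, adjusted p = 6.49e-05), so GxQ stood between its parents. The summed level of the carotenoid list was 7345, 9801 and 10252 CPM in GxQ fruits and 15312, 15071 and 15056 CPM in G fruits, with the first GxQ fruit lowest. The GGPPS2 call was lost without any 1 of the 6 fruits (adjusted p 0.0663 to 0.109). The CCD1B call was lost without the first GxQ or the second G fruit (adjusted p 0.0528 to 0.0714), and leaving out the first QxG and the third Q library brought PSY1 under the threshold (adjusted p = 0.0411).

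Fruit softens as enzymes cut the pectin, mannan and glucan of the cell wall. Of 12 measured cell wall genes, 3 fell and 1 rose in GxQ (25% lower, against 5.34% of all genes), with a median log2 fold change of -0.96. PL, a pectate lyase that softens ripe tomato, had 696, 576 and 686 CPM in GxQ fruits, against 3525, 3177 and 2422 CPM in G fruits. GxQ held 4.66-fold less, with no overlap (log2 fold change -2.22, standard error 0.30, adjusted p = 0.00252). MAN4, an endo-mannanase, had 0.767, 2.24 and 0.453 CPM in GxQ fruits, against 20.4, 23.7 and 14.4 CPM in G fruits (log2 fold change -4.07, adjusted p = 0.0251). The endoglucanase CEL1 was near the limit of detection in GxQ, with 0.358, 0.492 and 0.0566 CPM in GxQ fruits, against 5.15, 7.88 and 4.81 CPM in G fruits (log2 fold change -4.26, adjusted p = 0.00856). PG2A, the main fruit polygalacturonase, had 995, 1082 and 1453 CPM in GxQ fruits, against 3093, 2573 and 3501 CPM in G fruits and was not called (log2 fold change -1.38, adjusted p = 0.0975). It passed under DESeq2 (adjusted p = 0.0269), with only the 6 GxQ and G libraries (adjusted p = 0.00950) and without the first QxG and the third Q library (adjusted p = 0.00560). The ripening expansin EXP1 had 219, 175 and 246 CPM in GxQ fruits, against 489.6, 827 and 413 CPM in G fruits, again without overlap and without a call (log2 fold change -1.43, adjusted p = 0.0675). The called rise was the pectinesterase gene Solyc07g064180, with 88.2, 4.05 and 69.5 CPM in GxQ fruits, against 9.95, 4.17 and 5.55 CPM in G fruits (log2 fold change 3.03, adjusted p = 0.0300). The second GxQ fruit was as low as G, so the groups overlapped, and the call was lost without any 1 G fruit or without the first or the third GxQ fruit (adjusted p 0.0694 to 0.117) and with only the 6 GxQ and G libraries. Solyc07g064180 had 134, 235 and 101 CPM in QxG fruits and 317, 575 and 341 CPM in Q fruits. GxQ was below Q (log2 fold change -2.93, adjusted p = 0.0280) and was not called against QxG (adjusted p = 0.227). QxG was above G as well (log2 fold change 4.57, adjusted p = 0.0110). This pectinesterase gene has near copies beside it that may share reads. MAN4 was lost without the first or the second G fruit or without the first or the third GxQ fruit (adjusted p 0.0649 to 0.0868). PL was lower in GxQ than in QxG too, where it had 2382, 1859 and 1933 CPM (log2 fold change -1.66, adjusted p = 0.00364), and than in Q, at 2567, 2648 and 5212 CPM (log2 fold change -2.41, adjusted p = 0.00120).

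**Figure D5:**
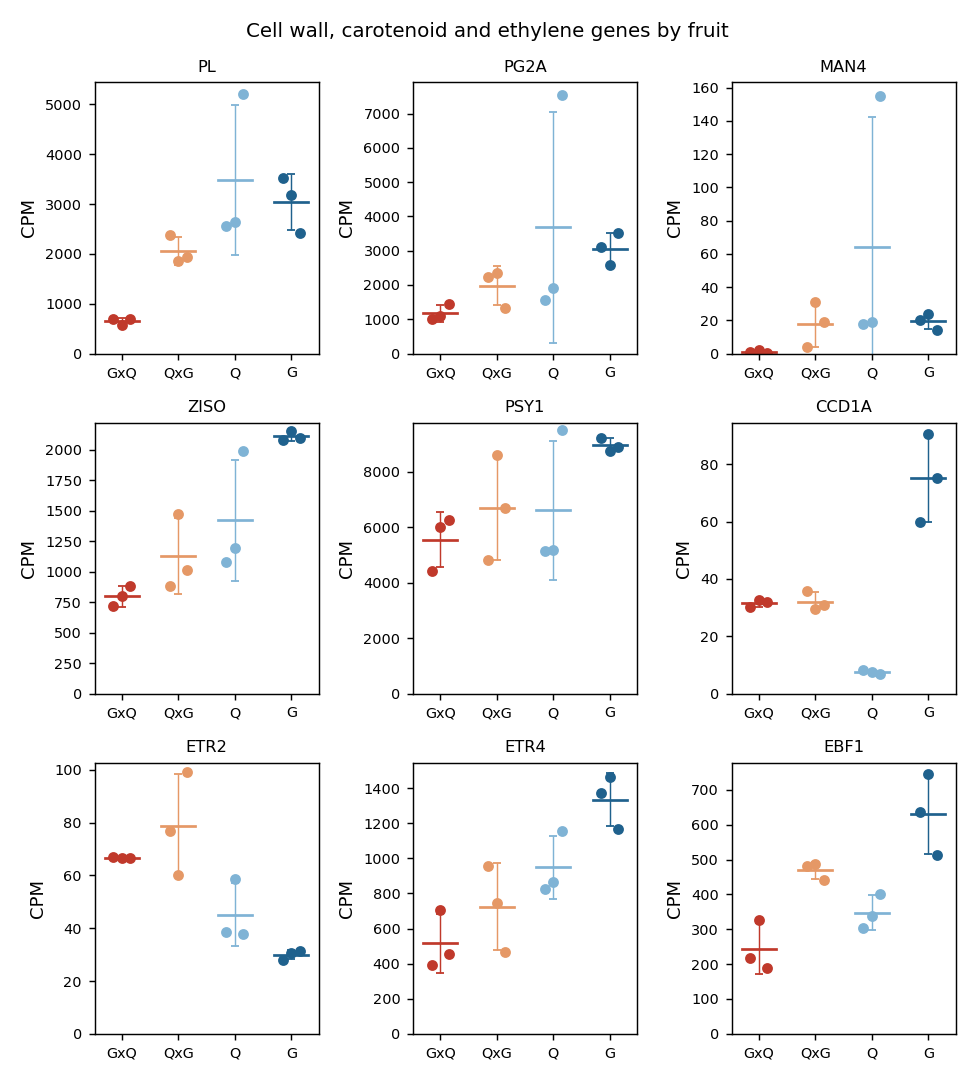
Level in CPM (y axis, from 0) of cell wall, carotenoid and ethylene genes in each fruit of GxQ, QxG, Q and G, with the mean (bar) and SD (whisker, n = 3; the lower whisker of MAN4 in Q runs below the axis). The PL fruits of GxQ lie between 576 and 696 CPM, below all 9 others, while the third Q fruit is far above its group for PL, PG2A and MAN4.

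Among 34 measured ripening and ethylene genes, 3 rose and 4 fell (8.82% higher and 11.8% lower, against 6.99% and 5.34% of all genes). The receptor gene ETR2 had 67.1, 66.5 and 66.7 CPM in GxQ fruits, against 28.0, 30.7 and 31.2 CPM in G fruits (log2 fold change 1.16, standard error 0.20, adjusted p = 0.00620). The receptor gene ETR4 had 390.5, 708 and 453 CPM in GxQ fruits, against 1374, 1465 and 1166 CPM in G fruits (log2 fold change -1.37, standard error 0.29, adjusted p = 0.0132). NR, the Never-ripe receptor, had 744, 974 and 757 CPM in GxQ fruits, against 1550.2, 1798 and 1611 CPM in G fruits (log2 fold change -1.003, adjusted p = 0.0178). The receptor genes ETR1, ETR5 and ETR6 stood at -0.25, 0.40 and 0.29 and were not called. CTR1, the kinase through which receptors hold the response off, had 95.9, 105 and 138 CPM in GxQ fruits, against 247, 192 and 209 CPM in G fruits (log2 fold change -0.94, adjusted p = 0.0143). EBF1, an F-box protein that removes the EIN3-like factors and is itself induced by ethylene, had 216, 327 and 189 CPM in GxQ fruits, against 637, 746 and 512 CPM in G fruits (log2 fold change -1.37, standard error 0.23, adjusted p = 0.00496). EIN2 and the EIN3-like genes EIL1 to EIL4 were not called.

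Among the ethylene-forming oxidases, ACO5 had 17.5, 13.4 and 3.17 CPM in GxQ fruits, against 2.84, 0.943 and 1.52 CPM in G fruits (log2 fold change 2.67, adjusted p = 0.0463), with the third GxQ fruit close to G. ACO1 had 841, 627 and 2383 CPM in GxQ fruits, against 1117, 1129 and 845 CPM in G fruits; the third GxQ fruit was high and the groups overlapped (adjusted p = 0.778). ACS2, which makes the precursor in ripening fruit, had 139.8, 238 and 471 CPM in GxQ fruits, against 703, 549 and 451 CPM in G fruits (log2 fold change -1.003, adjusted p = 0.271). FUL2, a MADS-box ripening factor, had 135, 141 and 167 CPM in GxQ fruits, against 83.0, 85.0 and 93.3 CPM in G fruits, a small and even rise (log2 fold change 0.76, standard error 0.13, adjusted p = 0.00556). The master regulators RIN and NOR were not called, RIN with 539, 855 and 834 CPM in GxQ fruits, against 812, 1059 and 862 CPM in G fruits and NOR with 139.5, 192 and 239 CPM in GxQ fruits, against 215, 237 and 199 CPM in G fruits (adjusted p = 0.416 and 0.703). ETR4 and NR each lost their call without the first or the third GxQ or the second G fruit (adjusted p 0.0509 to 0.0539 for ETR4, adjusted p 0.0620 to 0.0687 for NR). CTR1 lost its call without the first GxQ or first G fruit (adjusted p 0.0554 to 0.0619). ACO5 lost its call without any 1 G fruit or without the first or the second GxQ fruit (adjusted p 0.0822 to 0.158).

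In plastid and chlorophyll genes, 1 of 9 measured was called (11.1%, against 12.3% of all genes). CAB4, a chlorophyll-binding protein of the light-harvesting complex, had 6.60, 9.52 and 11.8 CPM in GxQ fruits, against 15.8, 19.7 and 22.0 CPM in G fruits (log2 fold change -1.05, adjusted p = 0.0349), a call lost without any 1 G fruit or without the first or the second GxQ fruit (adjusted p 0.0613 to 0.118). SGR1, which starts chlorophyll breakdown, had 478, 338 and 917 CPM in GxQ fruits, against 1636, 1260.3 and 1496 CPM in G fruits, all GxQ fruits below all G fruits, and missed the threshold (log2 fold change -1.34, adjusted p = 0.0525). Whether the fruits of GxQ and G were at the same point of ripening was not tested.

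The list gene with the smallest adjusted p belonged to organic acid metabolism. Aconitase converts citrate to isocitrate, and the aconitase gene Solyc12g005860 had 659, 783 and 801 CPM in GxQ fruits, against 39.7, 54.1 and 44.3 CPM in G fruits. The means were 748 ± 77.5 CPM in GxQ fruits and 46.0 ± 7.34 CPM in G fruits (SD, n = 3 each), 16.3-fold apart (log2 fold change 4.02, standard error 0.23, adjusted p = 9.77e-06). GxQ also exceeded QxG, at 96.9, 53.5 and 72.3 CPM (log2 fold change 3.33, adjusted p = 3.93e-05), and Q, at 136, 129 and 139.7 CPM (log2 fold change 2.47, adjusted p = 9.40e-05). The other aconitase gene, Solyc07g052350, had 237, 175 and 254 CPM in GxQ fruits, against 231, 203 and 199.8 CPM in G fruits, and the fruits overlapped (log2 fold change 0.07, adjusted p = 0.828). Glutamate decarboxylase makes GABA, the amino acid that tomato stores before ripening. GAD2 had 19.4, 16.1 and 23.8 CPM in GxQ fruits, against 10.9, 10.4 and 10.2 CPM in G fruits (log2 fold change 0.91, adjusted p = 0.0480), whereas GAD1 and GAD3 stood at 0.36 and -0.27 and were not called. The GAD2 call was lost without any 1 G fruit or without the first or the third GxQ fruit (adjusted p 0.1001 to 0.152). In all, 2 of 9 measured genes of the list rose and 0 fell (22.2% higher, against 6.99% of all genes).

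Sugar genes were close to the background, with 3 of 28 called (10.7%, against 12.3% of all genes). Sucrose synthase SUS1, which splits sucrose in the cytosol, had 59.3, 91.7 and 46.4 CPM in GxQ fruits, against 20.8, 27.1 and 22.1 CPM in G fruits (log2 fold change 1.50, adjusted p = 0.0257). INVINH1, an inhibitor of invertases, had 129, 233 and 233 CPM in GxQ fruits, against 115, 81.8 and 109 CPM in G fruits (log2 fold change 0.96, adjusted p = 0.0315). The fructokinase FRK1 had 21.7, 19.7 and 20.3 CPM in GxQ fruits, against 36.7, 39.7 and 39.1 CPM in G fruits (log2 fold change -0.90, standard error 0.17, adjusted p = 0.00769), with fruits of each group close together. TIV1, an invertase that cleaves sucrose in the vacuole, had 6156, 13459.9 and 9104 CPM in GxQ fruits, against 13895, 11994 and 15066 CPM in G fruits, overlapping (log2 fold change -0.51, adjusted p = 0.390). It was nevertheless far above Q, at 1409, 877 and 1834 CPM (log2 fold change 2.80, adjusted p = 0.00178). The cell wall invertase LIN5 had 24.6, 28.7 and 64.5 CPM in GxQ fruits, against 32.0, 49.96 and 39.7 CPM in G fruits (log2 fold change -0.04, adjusted p = 0.943). SUS1 lost its call without any 1 G fruit or without the first or the second GxQ fruit (adjusted p 0.0517 to 0.0966). INVINH1 lost its call without any 1 G fruit or without the second or the third GxQ fruit (adjusted p 0.0722 to 0.125).

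Plants make ascorbate, vitamin C, from GDP-mannose, and GDP-galactose phosphorylase is the step that controls the flow. Both of its genes fell in GxQ. GGP1 had 357, 313 and 302 CPM in GxQ fruits, against 625, 737 and 676 CPM in G fruits (log2 fold change -1.07, standard error 0.18, adjusted p = 0.00533), and GGP2 had 96.0, 69.4 and 94.2 CPM in GxQ fruits, against 213, 217 and 227 CPM in G fruits (log2 fold change -1.34, standard error 0.26, adjusted p = 0.00892). The next enzyme, the phosphatase GPP2, had 43.6, 66.4 and 67.8 CPM in GxQ fruits, against 101, 84.9 and 101 CPM in G fruits (log2 fold change -0.69, adjusted p = 0.0447). Among enzymes that use ascorbate, the peroxidase APX1 rose, with 319.8, 273 and 299 CPM in GxQ fruits, against 141, 136 and 167 CPM in G fruits (log2 fold change 1.01, adjusted p = 0.0290). Its neighbour APX2, which may share reads with it, had 195, 127 and 141 CPM in GxQ fruits, against 65.5, 66.0 and 86.7 CPM in G fruits and missed the threshold (adjusted p = 0.0529). GLDH, the last step of synthesis, had 38.7, 20.7 and 25.3 CPM in GxQ fruits, against 12.8, 14.0 and 14.7 CPM in G fruits (adjusted p = 0.0532). So 3 of 14 measured genes fell and 1 rose (21.4% lower and 7.14% higher, against 5.34% and 6.99% of all genes). APX1 lost its call without any 1 G fruit or without the first or the third GxQ fruit (adjusted p 0.0606 to 0.107). GPP2 lost its call without any 1 of the 6 fruits (adjusted p 0.0531 to 0.140) and with DESeq2's size factors.

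Steroidal glycoalkaloids are the bitter defence compounds of green tomato, and GAME5 adds a sugar that turns them into the mild form of ripe fruit. GAME5 had 7.31, 9.69 and 14.0 CPM in GxQ fruits, against 244, 179 and 126 CPM in G fruits, 17.7-fold less in GxQ (log2 fold change -4.14, standard error 0.59, adjusted p = 0.00312). It was 1 of 4 measured members and the only one called (25% called, against 12.3% of all genes). GAME7, GAME12 and GAME31 had log2 fold changes of -0.41, -1.53 and 0.74. GAME5 had 44.0, 15.8 and 6.23 CPM in QxG fruits and 39.0, 52.5 and 34.3 CPM in Q fruits, and GxQ was also below Q (log2 fold change -2.02, adjusted p = 0.0294).

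Heat shock proteins keep other proteins folded under stress. HSP101, the chaperone that untangles protein aggregates, had 1083, 1513 and 1173 CPM in GxQ fruits, against 3400.3, 4391 and 3613 CPM in G fruits (log2 fold change -1.60, standard error 0.33, adjusted p = 0.0115). Of the 14 measured, 1 fell and 0 rose (7.14% called, against 12.3% of all genes). Among the small heat shock genes, Solyc06g076560 had 2792, 5412 and 4723 CPM in GxQ fruits, against 2596, 1234 and 2625 CPM in G fruits (log2 fold change 1.00, adjusted p = 0.151), HSP22 of mitochondria had 418, 538 and 689.6 CPM in GxQ fruits, against 246, 269.9 and 252 CPM in G fruits (log2 fold change 1.10, adjusted p = 0.251), and neither was called. Solyc06g076520 and Solyc06g076570 had log2 fold changes of 0.96 and 0.43, while Solyc06g076540 was at -0.89 (adjusted p = 0.314) and the chaperone gene HSP90 at -1.04 (adjusted p = 0.260). None of these 4 was called. Small heat shock genes on chromosome 6 are close copies whose reads may be shared. HSP21 of plastids had 317, 892 and 886 CPM in GxQ fruits, against 1217, 834 and 1105 CPM in G fruits, overlapping and not called (log2 fold change -0.59, adjusted p = 0.410). Against QxG, where HSP21 had 1731, 3444 and 4494 CPM and HSP101 4441, 2591 and 4213 CPM, GxQ was lower for both (log2 fold change -2.21, adjusted p = 0.00818 for HSP21, log2 fold change -1.58, adjusted p = 0.00968 for HSP101).

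The fruit shape gene OVATE, whose product represses elongation of the fruit, had 45.7, 33.1 and 53.3 CPM in GxQ fruits, against 14.4, 12.3 and 16.5 CPM in G fruits (log2 fold change 1.61, standard error 0.32, adjusted p = 0.00995). Its call was lost without the second G fruit (adjusted p = 0.0504). GxQ also exceeded QxG and Q, at 4.96, 12.2 and 9.02 CPM in QxG fruits and 12.4, 11.03 and 6.65 CPM in Q fruits (log2 fold change 2.34, adjusted p = 0.00102 against QxG, log2 fold change 2.13, adjusted p = 0.00256 against Q). SUN, which promotes elongation, had 8.79, 7.88 and 4.81 CPM in GxQ fruits, against 2.75, 2.29 and 3.40 CPM in G fruits and was not called (log2 fold change 1.34, adjusted p = 0.126). P5CS1, which makes proline, fell slightly, with 64.5, 70.4 and 51.9 CPM in GxQ fruits, against 88.5, 95.7 and 89.3 CPM in G fruits (log2 fold change -0.55, adjusted p = 0.0283), and lost its call without any 1 G fruit or without the first or the third GxQ fruit (adjusted p 0.0645 to 0.0966). It was 1 of 3 measured genes of the drought list, and ASR1 and ASR2 were not called (33.3% called, against 12.3% of all genes).

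Markers of other tissues were few. Of 6 seed markers, the oleosin gene Solyc06g060840 was measured, with 7.82, 30.8 and 29.7 CPM in GxQ fruits, against 59.7, 71.0 and 86.1 CPM in G fruits (log2 fold change -1.67, adjusted p = 0.151); all GxQ fruits were below all G fruits. Storage protein genes of the seed were not analysed here. Of 8 epidermis markers, 3 were measured, with summed levels of 4.82 to 16.4 CPM in GxQ fruits and 12.4 to 12.5 CPM in G fruits, and 0 were called. The part of these tissues in the differences above was not tested.

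Outside the lists, the 2 largest rises and 2 largest falls among called genes that averaged 5 CPM or more and did not overlap were in genes with no name in the sources used here. Solyc02g065240 had 32.0, 105 and 132 CPM in GxQ fruits, against 0, 0.135 and 0 CPM in G fruits (adjusted p = 0.00263), and no fold is given against so few counts. Solyc02g065280, in the same stretch of chromosome 2, had 7.21, 10.3 and 24.3 CPM in GxQ fruits and 0 counts in all G fruits, at least 283-fold higher against a floor of 3 counts over the G group (adjusted p = 6.38e-04). Both were also present in Q, with 15.7, 28.1 and 207 CPM and 2.65, 3.46 and 4.12 CPM. Among the falls, Solyc06g060340 had 2.61, 2.30 and 1.70 CPM in GxQ fruits, against 26.1, 41.0 and 107 CPM in G fruits (log2 fold change -4.71, adjusted p = 0.00866), with the third G fruit highest. Solyc07g064410 had 1.38, 0.164 and 0.170 CPM in GxQ fruits, against 7.16, 14.4 and 8.17 CPM in G fruits (log2 fold change -4.07, adjusted p = 0.00542).

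Transcripts present on 1 side alone were all in GxQ. At a mean of 1 CPM or more in GxQ and 0 counts in all G fruits there were 10 genes, against 0 genes the other way round. Among them 8 were called, against 12.3% of all genes, but picking genes by these levels itself favours a call. The uncalled ones rested mainly on the third GxQ fruit. Solyc02g087540 had 0.920, 0.0547 and 7.76 CPM in GxQ fruits, and Solyc09g011590 had 0.205, 0.0547 and 4.87 CPM. Of the 10, 8 had counts in all 3 Q fruits, with Q means of up to 30.5 CPM. The 3 counts taken as the floor correspond to 0.0493 CPM over the G group, and the floor covers counting error only.

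Called genes lay on all 12 chromosomes, from 10.3% of the genes tested on chromosome 5 to 13.8% on chromosome 1. In 349 windows of 50 tested genes in the order of their identifiers, the median window held 6 called genes, and 95% of windows held 11 or fewer. The window from Solyc10g085030 to Solyc10g085720, which holds GAME5, had 19, of which 6 were higher and 13 lower. A window on chromosome 2 from Solyc02g090870 to Solyc02g091600 had 17, of which 11 were higher and 6, GGP2 among them, lower. Solyc02g065240 and Solyc02g065280 lay in the window from Solyc02g064770 to Solyc02g065650, with 15, of which 11 were higher. Positions are ranks of identifiers, since no genome of the files' build was used here.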

How the data were processed

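RNA of 12 fruits was sequenced, 3 per genotype. The deposited table covers 17887 genes. Its name speaks of normalization, but its values are whole numbers whose totals differ between libraries, so the deposited values are treated as unnormalized read counts of each gene. Per the submitters' processing notes, FastQC, fastp 0.21, HISAT2 2.1.0, featureCounts of Subread, edgeR and R 4.0.3 were used, with no roles given. The genome build and annotation, and how strand and multiply matching reads were handled, are not stated in the sources used here. Overlapping, antisense or near-identical genes may not be separable, and wild alleles may map less well. Each gene has over 0.5 CPM in at least 3 libraries. All 12 columns were matched by name, and 0 were left over.

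The test was edgeR 4.0.16's quasi-likelihood F test (R 4.3.3) with TMM factors, fitted to all 12 libraries with genotype as the factor so that they share 1 spread (common coefficient of variation 0.309, 8 residual degrees of freedom). P-values were adjusted by Benjamini-Hochberg over 17887 genes, with a threshold of 0.05; filterByExpr removed 0 genes. Standard errors were taken as the log2 fold change over the square root of F. GxQ against QxG, and against Q, came from the same fit. Alternatives were DESeq2 1.42.0, its size factors, other filters, only the 6 libraries, the replicate number as a block, and leaving out libraries.

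The members, the 17 lists and the rule for naming genes were chosen with earlier results of these data known. The rule took up to 10 called list genes per direction with a mean of 5 CPM and no overlap, up to 3 called per list by adjusted p, a set of ripening genes called or not, and 2 unlisted genes per direction; 51 genes met it and 7 were added. Names come from the lists. RefSeq (SLM_r2.1, 41476 genes) matched 0 identifiers; of 165 list symbols found there, 161 lay on the identifier's chromosome, and the 4 others are not named. The other 81 of the 246 list symbols were not found there, among them all clock genes, GAME5, JAZ1, HSP101, NR, GGPPS2, GGPPS3, GPP2, INVINH1 and the aconitases, so these names rest on lists written from general knowledge. The floor of 3 counts covers counting error only, whereas the standard errors include the spread between fruits.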

Additional observations from a re-analysis of the deposited data

Results flagged for a closer look

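GxQ and QxG were made from the same parents, and 31 of 200 genes (the 196 measured list genes and 4 unlisted genes named above) departed from G by different amounts in the 2 hybrids, by the direct test of GxQ against QxG (adjusted p under 0.05, edgeR). Of all 17887 genes, 1815 (10.1%) were called in that test. The 4 unlisted genes were picked for large differences between GxQ and G, and the lists were chosen with earlier results known. Values are log2 fold changes of GxQ over QxG. GxQ was higher for the aconitase Solyc12g005860 (3.33), for the clock genes Solyc12g056650 (0.70) and PRR5 (2.61), and for OVATE (2.34). It was higher for LOXD (5.69), JAZ1 (1.99), JAZ3 (2.55), the ammonia-lyase genes Solyc09g007900 (4.19) and Solyc09g007920 (4.90), and AADC1A (6.27). FUL2 (0.58), ACO5 (3.18) and INVINH1 (1.85) were higher as well. GxQ was lower for LHY (-1.39), PL (-1.66), MAN4 (-3.94), HSP101 (-1.58), HSP21 (-2.21) and EBF1 (-0.94). It was also lower for GGPPS3 (-0.67), CCD1B (-0.70), AAT1 (-1.01) and Solyc07g064410 (-3.49). Of genes not called between GxQ and G, GxQ was above QxG for MYC2 (1.1996) and the heat shock factor HSFA3 (2.00). Among these uncalled genes, GxQ was below QxG for EXP1 (-1.76), HSP21 (-2.21), HSP90 (-2.65) and the small heat shock gene Solyc06g076540 (-2.40). The same held for the chaperone gene BIP (-1.79), the starch synthase gene GBSS1 (-1.42) and the chlorophyll-binding protein gene Solyc03g005760 (-1.58). The first QxG library, with 1436 genes at 0 counts against 74 to 338 in GxQ and G, enters all of these values.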

How the results depend on the processing

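The 2205 called genes became 3379 under DESeq2 (1993 higher), 2210 with its size factors and 2930 with only the 6 libraries. Leaving out the first QxG and the third Q library gave 3919 (2113 higher, 1806 lower), with 69 list members called against 43. With the replicate number as a block the count was 1719, and 7 of 47 named calls were lost: GAD2, APX1, GPP2, GGPPS2, ACO5, INVINH1 and Solyc07g064180. Deviations of same-numbered GxQ and G fruits correlated at -0.166, 0.0943 and 0.0382, and 1 of 3 GxQ fruits correlated best with its own number. With 3 fruits a side, these values cannot tell whether same-numbered fruits share more than a number. Leaving out 1 fruit at a time gave 777 to 2039 called, 406 to 1181 higher, 371 to 858 lower and 22 to 41 list members. Removing the filter changed nothing, since it had removed 0 genes. Of the 47 named calls, 23 held under each of the 13 alternatives that tested them (CEL1 was not tested at a mean of 5 CPM), and all 24 others were lost without at least 1 fruit. Uncalled genes reversed sign: ACO1 was -0.49 without the third GxQ fruit (range -0.49 to 0.65), and LIN5 was 0.20, 0.14 and 0.13 without the first GxQ, the second GxQ and the second G fruit (range -0.61 to 0.20). The cause was not tested. With 3 fruits a side, genes at a few CPM are measured with wide error.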
